A study of Solanum lycopersicum x Solanum pennellii and Solanum lycopersicum and Solanum pennellii with 305 samples.

Results

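The 150 genes described here are those whose RNA in root tips was most in excess in the wild tomato Solanum pennellii over the cultivated tomato M82. They were chosen from 29633 genes in the table of read counts. Counts were turned into CPM, each gene's share of the reads of a library scaled to 1e6 reads, the 15000 genes with an S. pennellii mean of at least 5 CPM were ranked by log2((S. pennellii mean + 0.5)/(M82 mean + 0.5)), and the first 150 were kept. The S. pennellii and M82 values therefore chose the genes and are given as a description, without a test. The question asked of them was in which introgression lines, of the same and of other chromosomes, the high level appears.

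S. pennellii is a green-fruited wild relative that can be crossed with tomato. In an introgression line (IL) a segment of 1 S. pennellii chromosome has replaced the matching M82 segment while the rest of the genome is M82, so that lines differ from M82 mainly in that segment. A gene that is high only where its own S. pennellii copy is present differs in cis, through sequence at or near the gene. A gene whose M82 copy is high in a line carrying a distant S. pennellii segment differs in trans, through something that segment encodes.

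RNA-seq was done on the last 1 cm of roots of seedlings 3 to 4 days after germination, with 7 to 14 root tips pooled per library. The groups were S. pennellii LA0716 (3 libraries), 75 introgression lines with S. pennellii segments in M82 (298 libraries, 4 per line except 3 in IL7-5 and IL9-1-2) and S. lycopersicum cv. M82 (4 libraries). Replicates were grown from separate platings and each replicate number was sequenced as 1 pool. Because whole root tips were measured, fewer cells of a type and less RNA per cell cannot be told apart.

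Library totals ran between 4174630 and 5659441 reads in S. pennellii, between 683199 and 11338423 in the lines (median 4286682) and between 3078847 and 4835467 in M82. At the median depth of a line library 1 read is 0.233 CPM, and in the shallowest it is 1.46 CPM. The files identify genes by Solyc number, in which the first digits give the chromosome, and pair them with no symbol or function, so genes are named by number and no root marker was examined.

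All 150 genes had their lowest S. pennellii library above their highest M82 library, as did 28.3% of the 15000 ranked genes. Their S. pennellii means lay between 14.6 and 704 CPM with a median of 47.3 CPM, and their M82 means had a median of 0.160 CPM and a highest value of 13.4 CPM. The log2 ratio ran between 4.77 and 9.002 with a median of 5.79, where the median of all ranked genes was 0.04. In 39 of the 150, no M82 library held a read. Every chromosome held between 9 and 22 of them, with 22 on chromosome 1 and 19 on chromosome 6.

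Genes on both sides of the limit of the list were alike. Solyc07g062480, the last gene but 1, had 15.3, 21.9 and 17.7 CPM in S. pennellii, against 0.325, 0.207, 0 and 0.216 CPM in M82. Solyc01g111030, the last gene, had 15.1, 15.4 and 13.3 CPM in S. pennellii, against 0, 0.207, 0 and 0 CPM in M82. Just outside, Solyc07g017710 averaged 13.1 CPM in S. pennellii and Solyc05g007520 averaged 13.1 CPM, against no read in M82 for either gene.

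To place a line between the parents, its mean was expressed as the percent of the way from M82 (0%) to S. pennellii (100%) on the log2(mean CPM + 0.5) scale, with 50% as the midpoint. To test a line, its libraries were compared with those of all lines whose introgressions lie on the other 11 chromosomes. By their chromosome these lines carry the M82 copy of genes on the tested line's own chromosome. They had no part in choosing the list. IL9-3-1 of chromosome 9 also has 9 cis-labelled genes on another chromosome, with 0 genes of the list among the genes inside that segment. A gene was called higher at an adjusted p of at most 0.01 by edgeR's quasi-likelihood test. The pooled lines are different genotypes treated as 1 group, and their libraries far outnumber those of the line. The p-values and SE of this test therefore rest mostly on the spread of that group. They do not measure the spread among a line's own libraries. Each SE printed with a log2 difference is the size of that difference divided by the square root of the test's F statistic. Such an SE is not a standard error taken from the fit. It can understate the uncertainty of a large difference from few reference reads. Of the 150 genes, 131 had enough reads in the lines to be tested.

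A line was taken to carry the S. pennellii copy of a gene where the gene, or both of its nearest labelled neighbours, had the study's positional cis label. By this rule 140 of the 150 genes were carried by at least 1 line, 66 of them by 1 line and 74 by 2 or more. In the map of all genes against all lines these pairs run along the diagonal. Inside an introgression the reads had been mapped to S. pennellii sequence and elsewhere to M82 sequence, so a higher count of a carried gene cannot be told apart from the change of mapping sequence. A count in a line of another chromosome rests on M82 sequence. The pooled lines it is compared with include those that carry the gene, whose reads were mapped to S. pennellii sequence there. For Solyc02g084800 the pooled reference was 9.24 CPM for IL9-1-3, with its carrying lines included, and 6.70 CPM for IL2-4, without them.

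**Figure D1:**
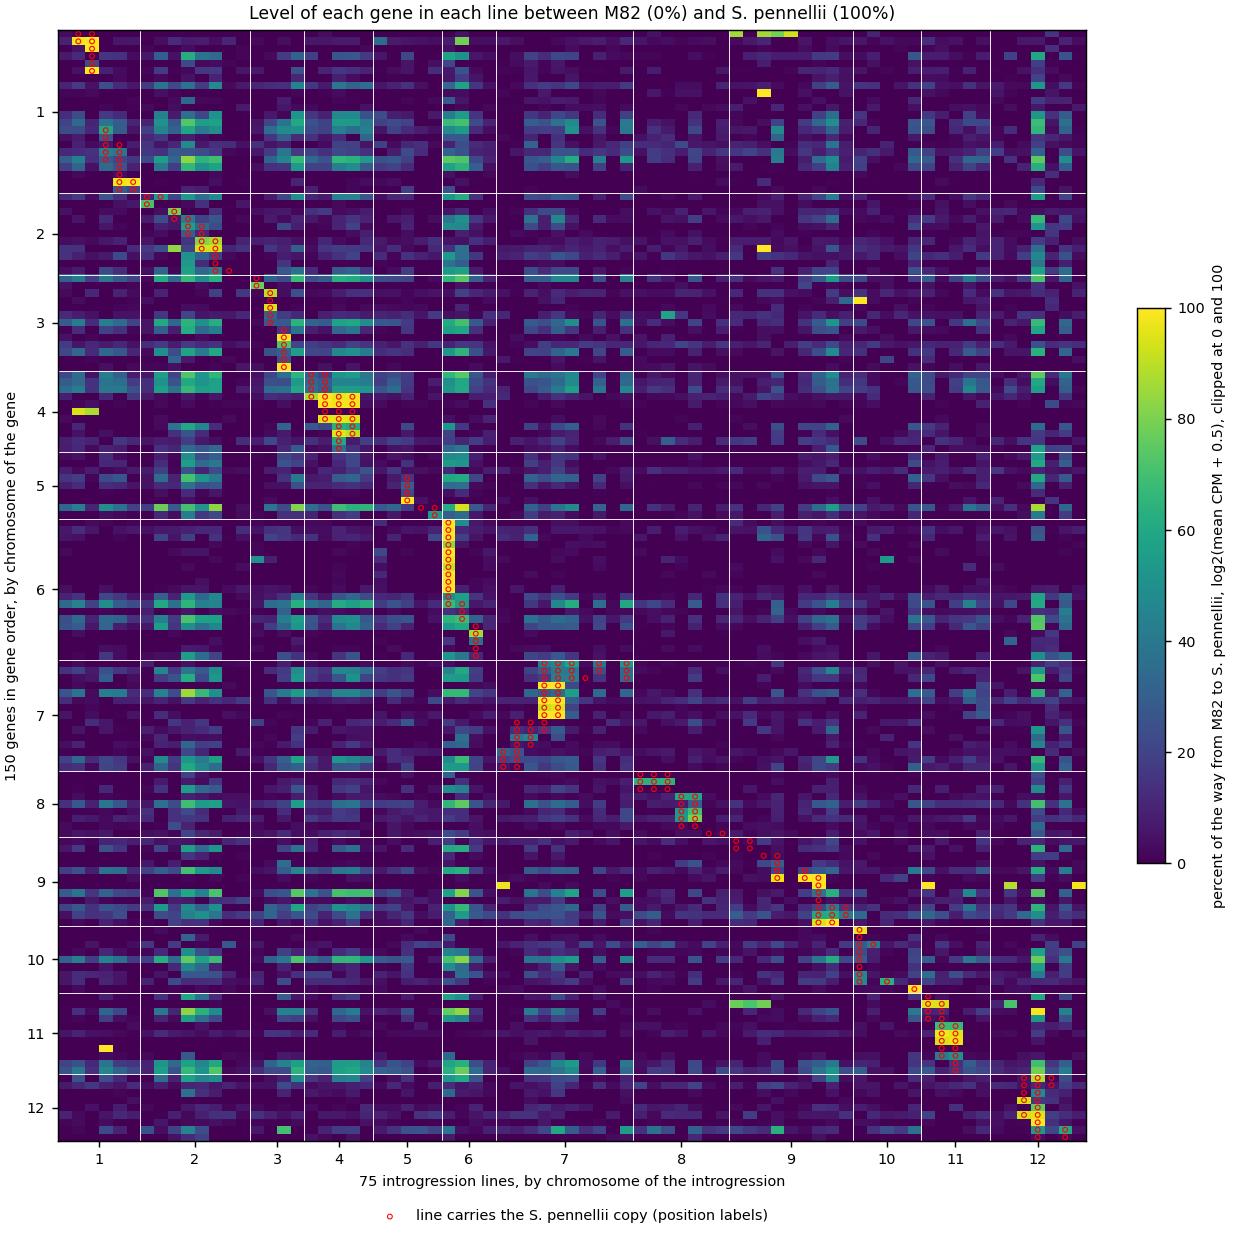
Percent of the way from the M82 mean (0%) to the S. pennellii mean (100%) on the log2(mean CPM + 0.5) scale, for 150 genes in gene order (rows) in 75 introgression lines by chromosome (columns), with red circles where the line carries the S. pennellii copy. High values follow the diagonal for part of the genes, and 5 columns, IL2-3, IL2-5, IL6-1, IL6-2 and IL12-3, are bright in many rows of other chromosomes.

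In at least 1 line of their own chromosome 85 of the 150 genes were called higher (56.7%), where the same was true of 17.8% of all genes tested. In at least 1 line of another chromosome 80 were called higher (53.3%), against 30.4% of all genes tested. The 19 untested genes count here as not called, while the shares over all genes leave untested genes out. The calls fell in lines of the own chromosome alone for 51 genes, in lines of both kinds for 34 and in lines of other chromosomes alone for 46. A gene near 0 in M82 could pass the filter on low counts only through a line in which it is high, so that each of the 131 had a call somewhere is no finding. The same filter raises every share of tested genes or pairs called that is given below, and nothing is read from their distance to the shares over all genes.

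Counted over pairs of a gene and a line of its own chromosome, 142 of 815 tested pairs were called higher, where the share over all genes was 4.22%. Among them, 120 of the 212 tested pairs in which the line carries the gene were called (56.6%, or 50.4% of the 238 carried pairs with the untested included), and the share over all genes tested was 14.5%. On the own chromosome outside the introgression 22 of 603 pairs were called (3.65%), and the share over all genes tested was 0.705%. In lines of other chromosomes 276 of 9006 pairs were called (3.06%, or 2.67% of 10318 pairs with the untested included), and the share over all genes tested was 0.708%.

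Among the 140 carried genes, 78 were called higher in a carrying line (55.7%, against 16.6% of all genes tested in a line that carries them), 46 were tested and not called, and 16 had too few reads to be tested. The carrying line in which a gene was highest reached the midpoint for 65 of the 140 (46.4%). In any line of the own chromosome 78 of the 150 reached it, where 58.9% of 1678 other genes with a log2 ratio of at least 1 did. In any line of another chromosome 64 of the 150 reached it (42.7%), where 48.0% of the same 1678 genes did. Of the 1555 other carried genes with a log2 ratio of at least 1, 58.5% reached it. The midpoint comes from the S. pennellii and M82 means that chose the list. The other genes have smaller ratios, so a smaller rise takes a line to their midpoint, and nothing is read from the distance between these shares. In a gene's highest carrying line, the level was at least 90% of the way for 37 genes and at least 75% for 46. It was between 50% and 75% for 19, between 10% and 50% for 47 and under 10% for 28. The median was 43.0% of the way.

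**Figure D2:**
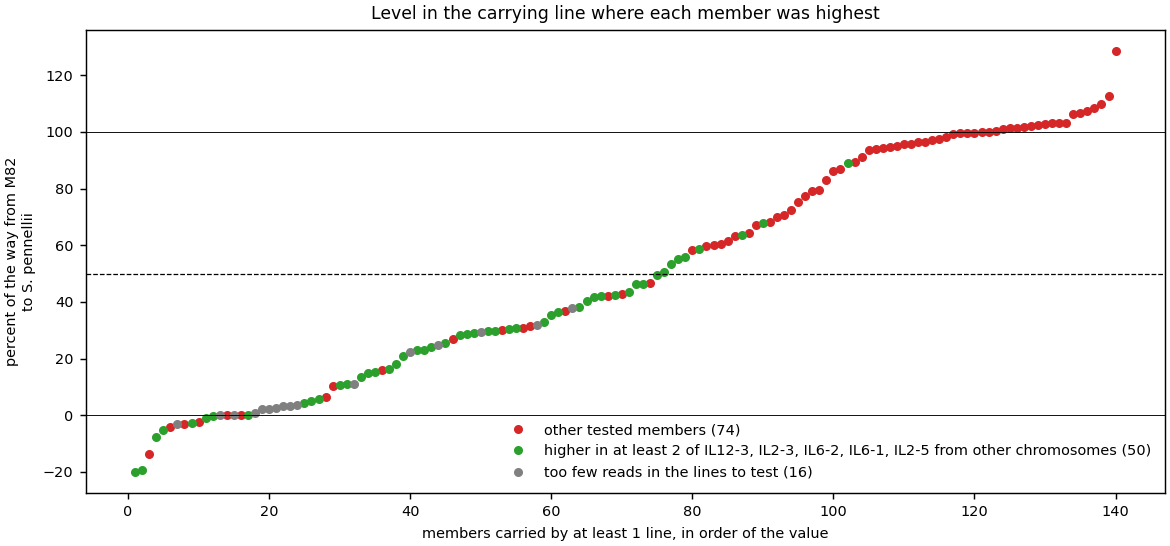
Each point is 1 of the 140 genes carried by at least 1 line, in order of its percent of the way from M82 to S. pennellii (log2(mean CPM + 0.5) scale) in the carrying line where it was highest. Green points are genes called higher from another chromosome in at least 2 of IL12-3, IL2-3, IL6-2, IL6-1 and IL2-5, grey points had too few reads to be tested and red points are the rest. The dashed line is the midpoint, which 65 genes reach, among them 57 of the 74 red points and 8 of the 50 green points.

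The gene with the largest ratio, Solyc12g088180, followed its own copy. It had 290.3, 337 and 325 CPM in S. pennellii and 553, 566, 565 and 476 CPM in IL12-3, the line that carries it, against 0, 0, 0.266 and 0.216 CPM in M82. All 4 IL12-3 libraries lay above all S. pennellii libraries, and no other line was called. The fitted log2 difference was 11.55 ± 0.08 (SE back-computed from the test statistic, as described above), with an adjusted p too small for the software to hold.

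Solyc04g039670, the third by ratio, was carried by 3 lines and reached the S. pennellii level in each. It had 189, 171 and 189 CPM in S. pennellii, 170.2, 189, 177 and 180.4 CPM in IL4-2, 153, 172, 163 and 175 CPM in IL4-3 and 146, 177, 165 and 177 CPM in IL4-3-2, against no read in M82. The lines overlapped S. pennellii and stood clear of M82. In IL4-2 the log2 difference from the lines of other chromosomes was 11.08 ± 0.12 (SE, edgeR quasi-likelihood adjusted p = 5.5e-211).

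For every chromosome there was at least 1 gene called higher in a line of that chromosome. In 10 of the 12 genes with the largest fitted difference the line was at least 96.5% of the way to S. pennellii. The 12 were picked for that difference, so such levels largely follow from the choice and are a description. Over all 140 carried genes the median was 43.0% of the way in the highest carrying line. Solyc01g047590 had 36.2, 47.0 and 51.8 CPM in S. pennellii and 44.0, 54.5, 35.2 and 42.4 CPM in IL1-1-4, against no read in M82. Solyc06g036250 had 96.1, 99.1 and 101 CPM in S. pennellii and 96.9, 88.0, 99.9 and 114 CPM in IL6-1, against no read in M82. In both genes the line and S. pennellii overlapped.

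Solyc03g114870 had 39.8, 28.6 and 40.1 CPM in S. pennellii and 59.8, 59.4, 40.4 and 40.3 CPM in IL3-4, against no read in M82. Solyc05g050590 averaged 14.9 ± 1.93 CPM in S. pennellii and 16.3 ± 2.85 CPM in IL5-3 (SD, n = 3 and n = 4), against no read in M82. Solyc10g005120 averaged 37.3 ± 2.15 CPM in S. pennellii and 32.0 ± 7.48 CPM in IL10-1, against no read in M82. IL5-3 and IL10-1 overlapped S. pennellii, and the 4 IL3-4 libraries lay above it, from just above (40.3 CPM) to well above (59.8 CPM). Solyc07g017700 averaged 25.6 ± 4.32 CPM in S. pennellii, 31.5 ± 3.502 CPM in IL7-4 and 33.4 ± 13.6 CPM in IL7-4-1, against no read in M82.

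Spread within a line was wide for some of these genes. Solyc11g027790 had 479.8, 401 and 249 CPM in S. pennellii and 181, 692, 334 and 70.3 CPM in IL11-3, against 0.650, 0, 0 and 3.02 CPM in M82. Every IL11-3 library was above every M82 library, but the 4 libraries of the line spread over a wide range. Solyc09g075400 had 115, 138 and 148.8 CPM in S. pennellii and 309, 324, 154 and 141 CPM in IL9-2-6, against 0, 0, 0.266 and 0 CPM in M82.

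On chromosomes 2 and 8 the gene with the largest difference stayed below S. pennellii. Solyc02g032040 had 16.5, 14.6 and 16.1 CPM in S. pennellii and 5.75, 5.97, 5.47 and 4.35 CPM in IL2-1, against no read in M82, which placed the line 70.8% of the way. Solyc08g007210 had 62.0, 42.5 and 49.3 CPM in S. pennellii and 10.22, 6.36, 8.53 and 14.9 CPM in IL8-1-5, against 0.325, 0, 0 and 0 CPM in M82, or 64.5% of the way. In neither gene did the line and S. pennellii overlap. IL8-1 and IL8-1-1, which also carry Solyc08g007210, averaged 9.85 ± 3.25 and 9.57 ± 2.85 CPM (SD, n = 4 each).

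**Figure D3:**
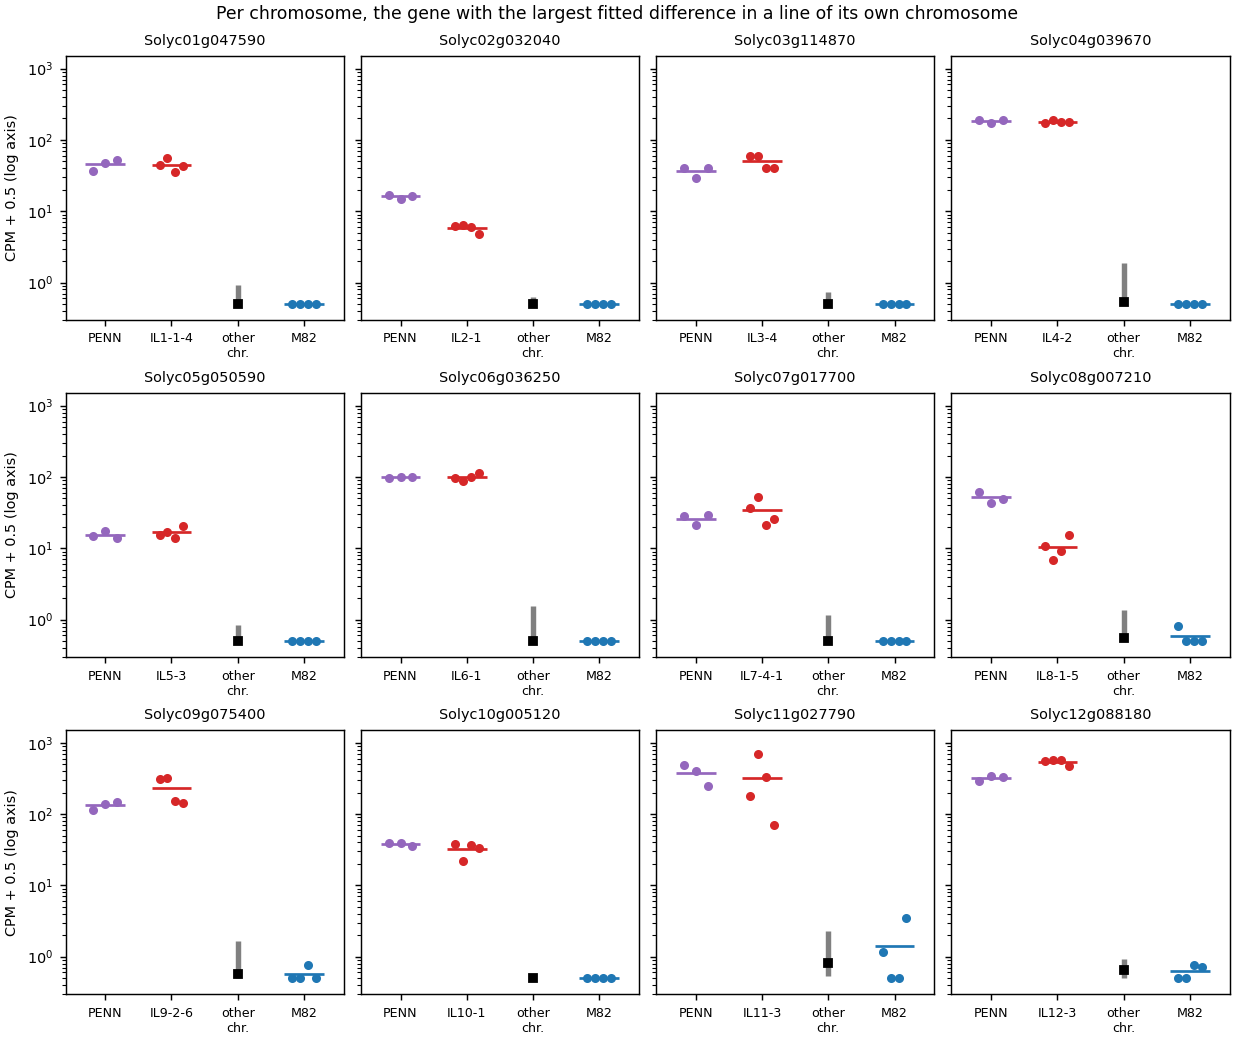
CPM + 0.5 (log axis) of 12 genes, 1 per chromosome, in S. pennellii (PENN, purple), in the own-chromosome line with the largest fitted difference (red) and in M82 (blue), with 1 point per library and a bar at the mean. Grey bars span the means of the lines of other chromosomes and black squares mark their median. In 10 panels the line is near the S. pennellii level, and for Solyc02g032040 and Solyc08g007210 it lies between the parents. The genes were picked for their large difference in the line.

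On chromosome 6, IL6-1 carried 12 of the genes, 12 were called higher there and 9 were at least 90% of the way, where 24.0% of all tested genes inside its introgression were called. Solyc06g024230 stood highest, with 74.3, 64.8 and 48.1 CPM in S. pennellii and 139, 376, 144 and 306 CPM in IL6-1, against 0, 0, 0 and 0.216 CPM in M82. It was 128% of the way and was picked out after its values were seen. Its neighbour in the list, Solyc06g024260, had 52.0, 49.6 and 27.4 CPM in S. pennellii and 46.1, 101, 26.8 and 110.2 CPM in IL6-1, against 0.325, 0.414, 0 and 0.863 CPM in M82. In IL6-1, 42 of 114 tested genes of the list from other chromosomes were also called higher (3.88% of all such genes tested). Whether each carried gene called there followed its own copy was not tested.

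Other genes were at the M82 level where their own copy was present. Solyc06g076800, the second by ratio, had 345, 313 and 294 CPM in S. pennellii and 0, 0.142, 3.15 and 0.251 CPM in IL6-3, which carries it, against 0, 0.827, 0 and 0 CPM in M82. Solyc07g066360, the fifth by ratio, had 367, 441 and 341 CPM in S. pennellii, 0.194, 1.41, 0.309 and 2.76 CPM in IL7-1 and 1.20, 1.32, 0.304 and 0.597 CPM in IL7-2, against 1.299, 0.827, 0 and 0.647 CPM in M82. The carrying lines overlapped M82 in both genes, and both were called higher in lines of other chromosomes. Solyc01g081600, the fourth by ratio, had 149.5, 234 and 125 CPM in S. pennellii and was carried by no line. It was called higher in IL2-3 (0.959, 1.58, 1.99 and 7.90 CPM, 33.9% of the way) and in IL6-1 (0.279, 4.32, 3.71 and 0 CPM, 28.1%), against no read in M82.

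The 19 genes with too few reads to be tested were low in all lines. This largely follows from the filter on low counts that set these 19 genes apart, so their line levels are given as a description. Their S. pennellii means lay between 18.8 and 143 CPM, but the highest line mean of any of them was 4.405 CPM, and none of the 16 that were carried reached the midpoint in a carrying line. Solyc01g068510, the most abundant of them, had 135, 173 and 121 CPM in S. pennellii, against 0, 0.620, 0.266 and 0 CPM in M82, and no line carried it. Solyc09g005400 had 128, 145 and 50.2 CPM in S. pennellii, 0.452, 0.627, 0 and 0 CPM in IL9-1 and 0.489, 0 and 0.578 CPM in IL9-1-2, against 0.325, 0.207, 0.532 and 0 CPM in M82. Both carrying lines overlapped M82.

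Solyc05g046240 had 111, 94.4 and 85.2 CPM in S. pennellii and 0.310, 0.484, 1.04 and 3.43 CPM in IL5-3, which carries it, against 0.325, 0, 0 and 0 CPM in M82. Solyc12g010980 averaged 52.5 ± 8.88 CPM in S. pennellii and 0.209, 0.462 and 0.263 CPM in IL12-2, IL12-3 and IL12-3-1, which carry it, against 0.0812 CPM in M82. In these genes the S. pennellii copy was present and few reads were counted.

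Genes next to each other on a chromosome could part. Among the 150 there were 9 pairs adjacent in gene order. Solyc08g068130, the most abundant gene of the list, had 748, 900.0 and 465 CPM in S. pennellii, 126, 99.2, 138 and 71.0 CPM in IL8-2 and 189.5, 149.3, 306 and 218 CPM in IL8-2-1, against 13.4 ± 5.45 CPM in M82 (SD, n = 4). Its neighbour Solyc08g068140 averaged 92.5 ± 25.004 CPM in S. pennellii, 15.6 ± 4.14 CPM in IL8-2 and 41.8 ± 20.7 CPM in IL8-2-1, against 1.47 ± 1.19 CPM in M82 (SD). The next gene, Solyc08g068150, had 75.7, 79.8 and 29.9 CPM in S. pennellii, 0.256, 0, 0 and 0 CPM in IL8-2 and no read in IL8-2-1, against no read in M82. The first 2 were thus called in both carrying lines, while the third was at the M82 level in both. Genes with near-identical neighbours can share reads, and how the counting divided them was not tested.

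Where 2 lines carry the same gene by the labels they could be compared directly. The mapping sequence is then the same, except that this is less certain for genes near the end of a segment. Over 120 combinations of 66 genes and 2 carrying lines, 17 differed (14.2%, 12 genes), where 3.03% of all such combinations over all genes did (edgeR quasi-likelihood contrast, adjusted p of at most 0.01). This comparison and the genes named from it were chosen after the data were seen.

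Solyc12g038350 had 12.9, 18.8 and 20.5 CPM in S. pennellii, 13.8, 13.7, 11.5 and 16.4 CPM in IL12-2 and 0.791, 0.435, 0.297 and 0 CPM in IL12-3, against no read in M82. IL12-2 was thus at the S. pennellii level and IL12-3 near M82, with a log2 difference of 5.404 ± 0.46 (SE, edgeR adjusted p = 4.1e-13). Solyc12g009680, which was also called higher in IL2-3, IL2-5, IL6-1 and IL6-2 of other chromosomes, went the other way, with 0.601, 1.76, 0.607 and 0.476 CPM in IL12-2 and 45.5, 54.8, 12.8 and 10.32 CPM in IL12-3, a log2 difference of -4.84 ± 0.46 (SE, edgeR adjusted p = 3.3e-19). In IL12-3-1, which carries it too, it averaged 0.689 CPM, below IL12-3 (log2 difference of IL12-3 over IL12-3-1 5.55 ± 0.54, SE, edgeR adjusted p = 1.8e-18). The labelled segments of IL12-3 and IL12-3-1 both begin at Solyc12g009650, so Solyc12g009680 lies near their ends, where counts are less certain. Solyc04g014730 had 19.6, 24.1, 19.7 and 22.1 CPM in IL4-1 and 35.5, 35.5, 37.8 and 38.4 CPM in IL4-2. These ranges did not overlap, with a log2 difference of -0.76 ± 0.18 (SE, edgeR adjusted p = 0.0036). Solyc04g014730 is the last cis-labelled gene of IL4-1, so its count there is less certain too.

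The calls in lines of other chromosomes were concentrated. Of the 276 such calls, 212 fell in 5 lines. IL12-3 held 51 of 124 genes tested there, or of 141 with the untested included, and 9.45% of all genes of other chromosomes tested were called. Many of the genes passed the filter through these same lines, so the shares describe the lines and are no test. IL2-3 held 48 of 120 (4.23% of all genes), IL6-2 held 47 of 114 (4.46%), IL6-1 held 42 of 114 (3.88%) and IL2-5 held 24 of 120 (2.81%). IL4-3 followed with 11 of 120 (2.14%). IL4-4, in which 2007 of 17640 genes of other chromosomes were called higher, held 3 genes of the list. Outside the 5 lines, 36 of the 150 genes had a call in a line of another chromosome, which is 27.5% of the 131 tested, and 21.3% of all genes tested had one.

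**Figure D4:**
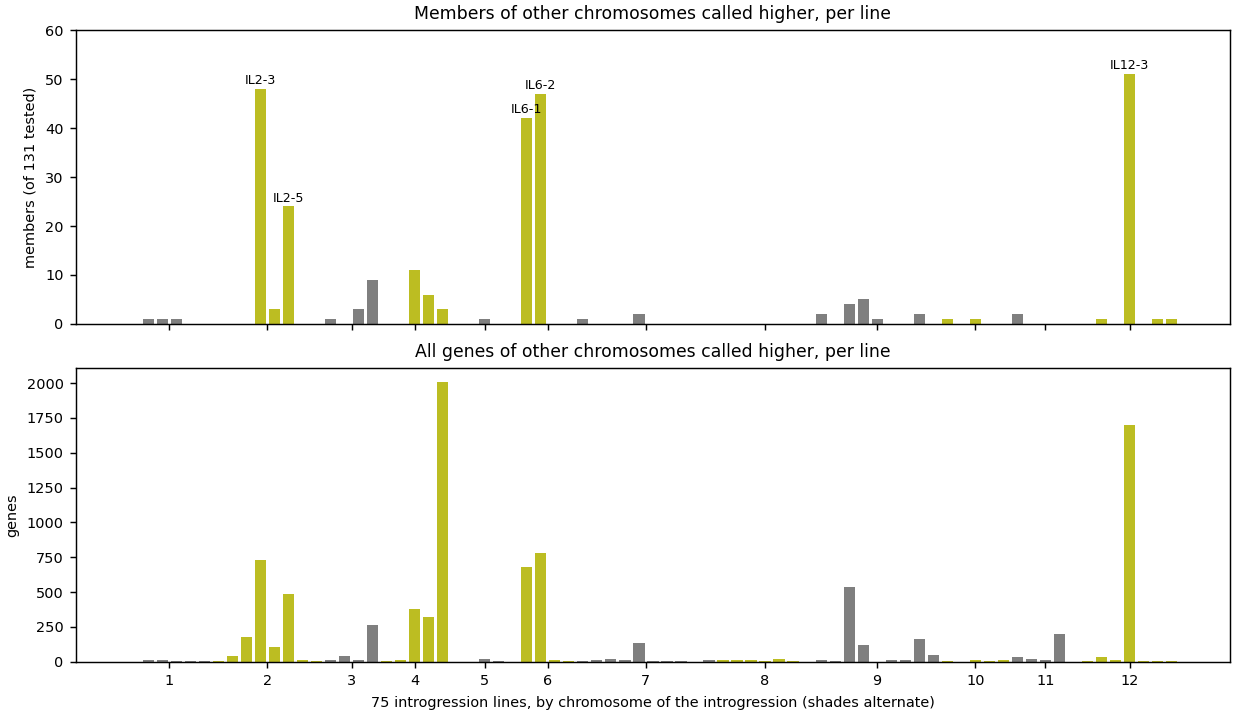
Genes of other chromosomes called higher in each of 75 introgression lines, in order of chromosome, for the genes of the list (top) and for all genes (bottom). Of the 131 genes of the list tested, between 112 and 125 lay on other chromosomes than that of a given line. IL12-3, IL2-3, IL6-2, IL6-1 and IL2-5 have the tallest bars above (51, 48, 47, 42 and 24), and IL4-4 is tallest below (2007) with 3 above.

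These counts moved when a replicate number was left out of all lines, which takes 1 library from the line and 1 from each line it is compared with. Without replicate 3, IL6-2 held 6 calls in place of 47, and IL6-1 held 18 in place of 42. Without replicate 2, IL6-2 held 26 and IL6-1 held 23. Without replicate 4, IL2-3 held 17 in place of 48 and IL2-5 held 10 in place of 24. Without replicate 1, IL12-3 held 27 in place of 51 and IL2-5 held 13. IL2-5 held 16 without replicate 2 and 15 without replicate 3.

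Of the 131 genes tested, 56 were called from another chromosome in at least 2 of the 5 lines, and 4.75% of all genes tested were. Many of the 56 passed the filter through these lines, so nothing is read from the distance between the shares. Of the 56, 11 were called in 5 lines, 22 in 4, 13 in 3 and 10 in 2. These 56 were defined after the values were seen and are described without a test. Over them, the median level per library was 97.4, 100.1 and 90.03 CPM in S. pennellii. It was 20.4, 20.2, 5.19 and 10.8 CPM in IL12-3, 7.19, 7.65, 7.95 and 21.0 CPM in IL2-3 and 5.86, 17.7, 20.6 and 0.569 CPM in IL6-2. It was 3.49, 14.5, 17.2 and 3.06 CPM in IL6-1 and 4.70, 4.39, 7.02 and 6.89 CPM in IL2-5. In the 278 libraries of the other 70 lines it lay between 0 and 7.28 CPM with a median of 0.384 CPM, and it was 0.325, 0.620, 0.133 and 0.216 CPM in M82.

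Libraries of 1 line differed widely on this measure, and replicate 4 of IL6-2 was within the range of M82. In IL2-5 the 4 libraries were close together, but all were within the range of the other 70 lines. By line means, the 56 genes stood at a median of 17.2% of the S. pennellii mean in IL12-3, 16.9% in IL2-3, 14.7% in IL6-2, 12.97% in IL6-1 and 7.43% in IL2-5. The level was graded over the lines, since 17 of the 75 lines had a median of at least 2 CPM and 45 had one under 1 CPM. What the libraries with high values share was not tested.

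**Figure D5:**
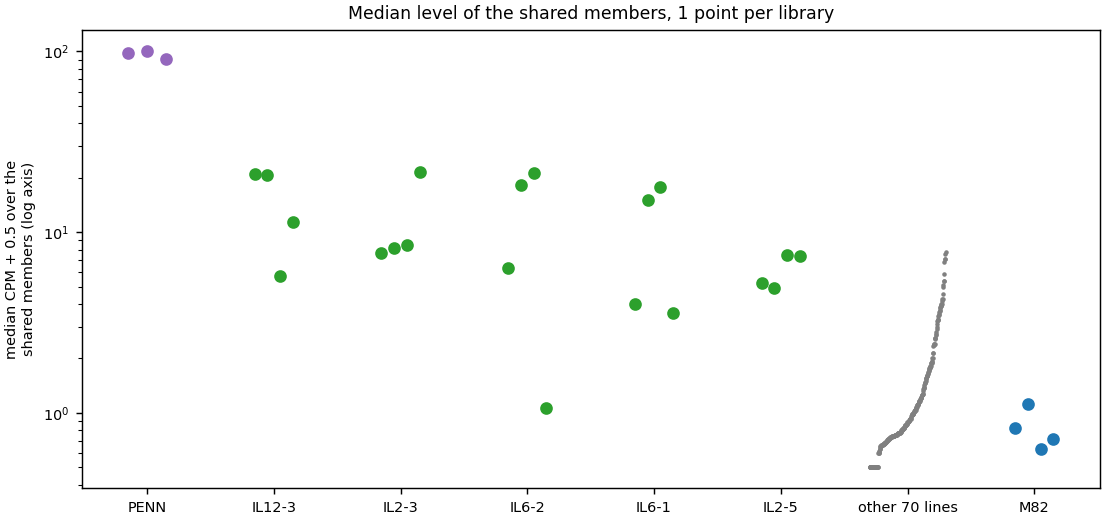
Median CPM + 0.5 (log axis) over the 56 genes called higher in at least 2 of the 5 lines from another chromosome, 1 point per library, in S. pennellii (PENN), the 5 lines, the other 70 lines and M82. Libraries within a line spread widely, with replicate 4 of IL6-2 at 0.569 CPM, and no library reaches S. pennellii.

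Of the 56 genes, 50 were carried by a line. In a carrying line 15 of the 50 were called higher, where 16.6% of all genes tested in a line that carries them were, and 8 reached the midpoint, with a median of 29.0% of the way. Of the other 75 genes tested, 74 were carried, 63 were called in a carrying line and 57 reached the midpoint, with a median of 90.3% of the way. Since reads in some line were needed for a gene to be tested and the 56 were chosen by theirs, these counts describe the division only.

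Solyc07g065810 was called higher in 7 lines of other chromosomes, more than any other gene of the list. It had 53.2, 46.4 and 51.8 CPM in S. pennellii, 8.68, 23.5, 27.8 and 2.28 CPM in IL6-2 and 8.67, 8.01, 9.35 and 8.72 CPM in IL4-3, against 0.974, 0.827, 0.797 and 0.863 CPM in M82. IL4-3 was even and IL6-2 was not. The log2 difference was 2.63 ± 0.50 in IL6-2 (SE, edgeR adjusted p = 2e-05) and 1.80 ± 0.39 in IL4-3 (adjusted p = 0.0003). In IL7-1 and IL7-2, which carry it, it averaged 2.29 ± 0.964 and 2.63 ± 0.845 CPM (SD, n = 4 each).

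Solyc03g005320, Solyc09g083050, Solyc07g007800 and Solyc04g011600 were called in 6 lines of other chromosomes each. Solyc03g005320 had 189, 197 and 172 CPM in S. pennellii and 58.6, 86.1, 132 and 12.0 CPM in IL6-2, against 5.197, 4.96, 4.52 and 2.80 CPM in M82. In IL3-1, which carries it, it averaged 4.34 ± 1.88 CPM, the M82 level. Solyc09g083050 averaged 141 ± 14.0 CPM in S. pennellii and 43.2 ± 27.5 CPM in IL6-2, against 3.56 ± 0.704 CPM in M82 (SD). Without replicate 3 of the lines, Solyc07g065810, Solyc03g005320, Solyc07g007800 and Solyc04g011600 were no longer called in IL6-2 (adjusted p = 0.021, 0.070, 0.030 and 0.040).

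Of the 3 most abundant genes, Solyc03g097500 and Solyc07g066360, described above, were among the 56. Solyc03g097500 had 459, 388 and 362 CPM in S. pennellii, 115, 173, 249 and 10.8 CPM in IL6-2 and 59.5, 11.08, 25.8 and 19.7 CPM in IL3-2, which carries it, against 13.3, 12.202, 8.77 and 5.39 CPM in M82. The call in IL6-2 (log2 difference 2.18 ± 0.55, SE, edgeR adjusted p = 0.0022) was lost without replicate 2 or replicate 3 of the lines.

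Some genes were close to the S. pennellii level in 1 or a few lines of another chromosome. The chromosome of a gene was read from its Solyc number and the carrying lines from the position labels, and neither could be checked against a genome, so these values do not show a trans effect by themselves. In 9 genes a line of another chromosome was at least 90% of the way, 7 of them in a line outside the 5 above. These were picked out after their values were seen. In 5 of the 9, every line that carries the gene was under 10% of the way.

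Solyc03g044840 had 93.4, 106 and 120.3 CPM in S. pennellii and 163, 182, 168 and 193 CPM in IL10-1, against 0, 0, 0.266 and 0.216 CPM in M82. In IL3-2, which carries it, none of the 4 libraries held a read. The means of the other 73 lines were at most 3.04 CPM, and the log2 difference in IL10-1 was 10.15 ± 0.14 (SE, edgeR adjusted p = 1.7e-308).

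Solyc04g039850 was read, among the lines, in 2 of chromosome 1. It had 18.9, 17.8 and 23.9 CPM in S. pennellii, 19.3, 12.99, 18.0 and 13.9 CPM in IL1-1-3 and 11.7, 9.97, 13.8 and 13.8 CPM in IL1-1-4, against no read in M82. IL4-2, IL4-3 and IL4-3-2, which carry it, held no read, and neither did any of the 274 libraries of lines of other chromosomes than 1. Against a floor of 3 reads over those libraries it was at least 6664-fold higher in IL1-1-3 and at least 5249-fold higher in IL1-1-4.

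Solyc01g009840 was called in 4 lines of chromosome 9. It had 22.3, 24.3 and 31.5 CPM in S. pennellii and 21.0, 20.9, 19.5 and 15.6 CPM in IL9-2-5, against no read in M82. It averaged 14.8 ± 1.93 CPM in IL9-1, 15.1 ± 8.33 CPM in IL9-1-3 and 10.98 ± 5.47 CPM in IL9-2 (SD, n = 4 each). IL1-1-3 and IL1-1-4, which carry it, held no read, and the means of the other 69 lines were at most 0.411 CPM.

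Solyc11g042870 had 35.0, 30.0 and 30.2 CPM in S. pennellii and 29.5, 44.7, 29.0 and 39.7 CPM in IL1-3, against 0.650, 0.414, 0.797 and 0.431 CPM in M82. IL11-2 and IL11-3, which carry it, averaged 0.105 ± 0.124 and 0.178 ± 0.0459 CPM (SD, n = 4 each). Solyc01g073970, carried by no line, had 107, 97.2 and 91.7 CPM in S. pennellii and 136, 354, 151.8 and 133 CPM in IL9-1-3, against 0.325, 0.207, 0.266 and 0.216 CPM in M82. Both were thus at the S. pennellii level in 1 line.

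In 2 of the 9 genes both a carrying line and a line of another chromosome were high. Solyc02g084800 had 150.7, 137 and 143 CPM in S. pennellii, 105, 251, 134 and 107 CPM in IL9-1-3 and 101, 96.5, 126 and 121 CPM in IL2-4, which carries it, against 3.57, 3.102, 3.46 and 2.59 CPM in M82. It was also called in IL2-2 of its own chromosome, whose labelled segment does not hold it. There it averaged 79.5 ± 17.2 CPM (SD), or 84.0% of the way (log2 difference 3.52 ± 0.40, SE, edgeR adjusted p = 2.1e-13). Solyc09g075690 had 27.8, 29.8 and 20.5 CPM in S. pennellii and 35.0, 18.7, 29.6 and 32.7 CPM in IL9-3, which carries it, against 0.325, 0.414, 0 and 0.431 CPM in M82. It also averaged 26.0 ± 3.93 CPM in IL11-1, 23.4 ± 3.36 CPM in IL7-1, 23.9 ± 3.74 CPM in IL12-4-1 and 17.4 ± 2.55 CPM in IL12-1-1, while the means of the remaining 70 lines were at most 0.380 CPM.

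The other 2 were Solyc11g009100 and Solyc05g054900, which reached 90% in IL12-3 and IL6-2 and are among the 56 genes described above. Solyc11g009100 had 40.7, 52.6, 5.34 and 10.8 CPM in IL12-3 and Solyc05g054900 had 23.0, 28.2, 67.4 and 6.26 CPM in IL6-2. The libraries of both lines spread over a wide range.

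On the own chromosome but outside the introgression there were 22 calls. Of the 5 lines above, IL2-3 and IL6-2 held 4 each, IL6-1 held 3 and IL2-5 held 1. IL7-5 also held 4, in genes that were highest in 1 library. Solyc07g017700 had 27.5, 20.7 and 28.6 CPM in S. pennellii and 0, 0 and 2.17 CPM in replicates 1, 3 and 4 of IL7-5, against no read in M82. Solyc07g026860, Solyc07g023990 and Solyc07g032080 were likewise highest in replicate 4. With a replicate number left out of all lines, all 4 were called without replicate 1 or replicate 3, and 0 without replicate 4. IL7-4 and IL7-4-1 carry these genes. Why replicate 4 stood apart was not tested.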

How the data were processed

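The authors trimmed single-end 50 bp reads, mapped them with BWA to coding sequences of M82 in which each line's introgression was replaced by S. pennellii sequence, and counted reads per gene with SAMtools. No source used here gives the tool versions or the sequence the S. pennellii libraries were mapped to. The deposited counts are raw whole-number counts per gene and library. From the authors' table of comparisons, which also holds fold changes and p-values, only the positional label (cis or trans, a deposited label with no number) was used. The deposited rounded CPM tables were not used, nor were 9 per-sample columns of the count table that match no labelled sample, which leaves IL1-2 and IL4-1-1 out. Where an introgression ends is known only roughly, so counts near its ends are less certain, and IL7-5-P5 has no cis label. The labels number S. pennellii and IL7-5 libraries 1, 3 and 4.

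The genes, lists and comparisons were chosen with earlier results of these data known. The test was edgeR 4.0.16 under R 4.3.3 (TMM factors from 0.835 to 1.14, filterByExpr by line, 19412 genes kept, quasi-likelihood test, Benjamini-Hochberg adjustment over all genes within a line). Each line was set against the pooled lines of the other 11 chromosomes, without M82 and S. pennellii, which had chosen the genes. Percentages, CPM and figures were made in Python 3.11.15 with pandas 2.3.3, numpy 2.4.6 and matplotlib 3.10.9. On simulated counts for IL7-4 with 18587 genes, 84% of genes changed by a log2 fold of 1 and 100% of those changed by 2, 3 or 4 were called, with 2 false calls. The simulation gave every gene the same dispersion (spread beyond counting noise) and all reference lines a common mean. It had no correlation within a replicate number, and genes with the lowest means were not changed. These rates therefore do not carry over to the genes of the list, and only show that the code runs as meant. The highest correlation between libraries was 0.991, and none was treated as a repeat. 1442 genes had no read.

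Named genes were the 5 with the largest ratio, for each chromosome the one with the largest fitted difference among calls in its own lines, the 5 called in the most lines of other chromosomes, the 5 most abundant called in no line, the last 2 inside and the first 2 outside the list and the 3 most abundant. Others are said to be chosen after their values were seen. Lists by gene function and tissue markers could not be applied, because the files name no functions.

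Replicate numbers pair libraries, since a number marks a plating date and a sequencing pool. Deviations from line means correlated at 0.132 between lines for the same number and at -0.0429 for different numbers. Alternatives were DESeq2 1.42.0, M82 as the reference, other scalings, filters, thresholds, list rules, the replicate block, and leaving out replicates or lines.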

Additional observations from a re-analysis of the deposited data

Results flagged for a closer look

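Among 45 groups of 4 libraries examined for named genes, 8 held a library far from the other 3. Chance gives about 1 in 20 for spread values, a rate that does not apply to the 6 of them in M82, where 3 libraries held no read and any read sets the remaining library apart. The M82 values had also chosen the genes. Solyc12g088180 was at 476 CPM in replicate 4 of IL12-3, with the others between 553 and 566 CPM. Solyc01g081600 was at 7.90 CPM in replicate 4 of IL2-3, with the others between 0.959 and 1.99 CPM. In M82, Solyc06g076800 was at 0.827 CPM (4 reads) in replicate 2. Solyc08g007210, Solyc05g046240 and Solyc12g010980 were each at 0.325 CPM (1 read) in replicate 1. Solyc09g075400 was at 0.266 CPM (1 read) in replicate 3, and Solyc01g111030 at 0.207 CPM (1 read) in replicate 2.

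Solyc09g075400 differed between 2 lines that carry it, with 143, 87.2, 106 and 109 CPM in IL9-2 and 309, 324, 154 and 141 CPM in IL9-2-6. The log2 difference of IL9-2 over IL9-2-6 was -0.93 (edgeR quasi-likelihood contrast, adjusted p = 0.00016), and the ranges overlapped by 1 library of IL9-2. Solyc09g075400 is the last cis-labelled gene of both lines, where counts are less certain.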

How the results depend on the processing

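The 85 genes called in a line of their own chromosome and the 80 called in a line of another stayed within 1.5 times of these counts under 28 and 27 of 29 alternatives, some of which compare with the M82 libraries that had chosen the genes. With genes under a mean of 5 CPM left out, when only 21 of the list were tested, the counts were 10 and 14. At 75% of the way in place of the midpoint, 46 genes (of 78 at the midpoint) were reached in a line of their own chromosome and 17 (of 64) in another, and at 25% of the way 97 were reached in another. Without the 5 lines with the most calls, chosen after seeing the data, 36 genes were called in a line of another chromosome (27.5% of the 131 tested, and 21.3% of all genes tested) and 39 reached the midpoint there. Leaving out each replicate number in turn from all lines gave 76 to 86 own-chromosome calls, 75 to 82 other-chromosome calls, and 74 to 81 and 61 to 66 genes at the midpoint. With the replicate number as a block the counts were 85 and 80, and the block changed none of the 26 named values' calls. By DESeq2 against M82 alone IL6-2 held 13 calls in place of 47, and by edgeR with M82 as the reference IL2-5 held 41 in place of 24. The cause was not tested.

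Of 209 alternatives for the 26 named values that use no M82 library, 203 kept direction and call and 6 lost the call, all in IL6-2. A further 47 compared with the M82 libraries that had chosen the genes for being low, and say nothing about stability. Without replicate 3 the log2 difference was 2.22 for Solyc07g065810, 1.85 for Solyc03g005320, 2.37 for Solyc07g007800, 2.602 for Solyc04g011600 and 1.76 for Solyc03g097500 (edgeR adjusted p = 0.12), and without replicate 2 it was 2.07 for Solyc03g097500 (adjusted p = 0.023). Replicates here are separate platings. The 19 untested genes had few reads in every line, and without the filter on low counts all 150 were tested.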
